A study of Mus musculus with 30 samples.

Results

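The recovery experiment asked how nascent transcription looks in mouse embryonic stem cells 24 h after an auxin that removes the histone chaperone subunit SPT16 is washed out. It comprised 8 of the 30 TT-seq libraries of the series, chosen as the IAA and EtOH columns of the washout count table. Of these, 4 were the IAA washout libraries and 4 the EtOH washout libraries, with 2 of each from line 10E and 2 from line 11D. All 8 came from E14 cells in which the endogenous SPT16 carried a C-terminal V5 and auxin-inducible degron tag and in which the plant F-box protein osTIR1 was integrated, so the EtOH controls carried the same alleles. The IAA group received 500 nM 3-indoleacetic acid (IAA) for 12 h and then fresh medium for 24 h. The EtOH group received ethanol, the vehicle of IAA, for the same 12 h and the same washout. The cells grew without feeders in serum medium with LIF, CHIR99021 and a MEK inhibitor, a mixture that holds stem cells in the naive state. The lines were targeted independently, and each is 1 line, so line stands for a clone and not for an animal. The titles number the clones and the table names 10E and 11D, and the labels do not say which is which. The label text of the IAA libraries also repeats the ethanol treatment, and the groups follow the titles and the treatment tag.

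FACT, a dimer of SPT16 (gene Supt16) and SSRP1, loosens and reassembles nucleosomes ahead of and behind elongating RNA polymerase II. The degron marks SPT16 for the proteasome when auxin bridges it to osTIR1, and removal of auxin lets the protein be made again. TT-seq labels RNA with 4-thiouridine for 5 min and sequences the labelled fragments. The counts cover whole gene bodies, introns included, so they follow newly made RNA more than the stored messenger RNA. No protein measurement was part of these files, and the return of SPT16 itself was not measured.

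Library composition differed between the groups. Total counts over all genes were 9.73 ± 2.13 M per IAA library and 14.9 ± 2.59 M per EtOH library (SD, 4 libraries each; exact permutation test, two-sided, p = 0.0286, which is the lowest p that groups of 4 can give). Ribosomal RNA loci took 26.2 ± 3.88% of counts in IAA libraries and 7.85 ± 1.63% in EtOH libraries (exact permutation p = 0.0286). Another 13 loci whose level tracked that of 18S ribosomal RNA across libraries, picked after their values were seen, took 12.4 ± 2.00% and 1.95 ± 0.493%. Outside the ribosomal RNA loci the depth was 7.17 ± 1.57 M in IAA and 13.7 ± 2.51 M in EtOH libraries. The first principal component, with 53.2% of the variance, set the 10E IAA libraries at 66.4 and 57.4, the 11D IAA libraries at 18.6 and 13.6, and all EtOH libraries below 0. On the second component, with 20.6%, the EtOH libraries of both lines split by replicate number, with replicate 1 at 37.6 and 36.9 and replicate 2 at -17.1 and -16.1. The stem cell markers summed to 2190 to 2437 CPM (counts scaled to library size) in IAA libraries and 1932 to 3373 CPM in EtOH libraries. Esrrb, given below, was the largest part of these sums, so they mostly follow that gene. Nanog, another of the markers, lay lower in all IAA libraries. Sox2, which lies inside Sox2ot on the same strand, was counted 0 in all libraries and cannot be read here.

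**Figure D1:**
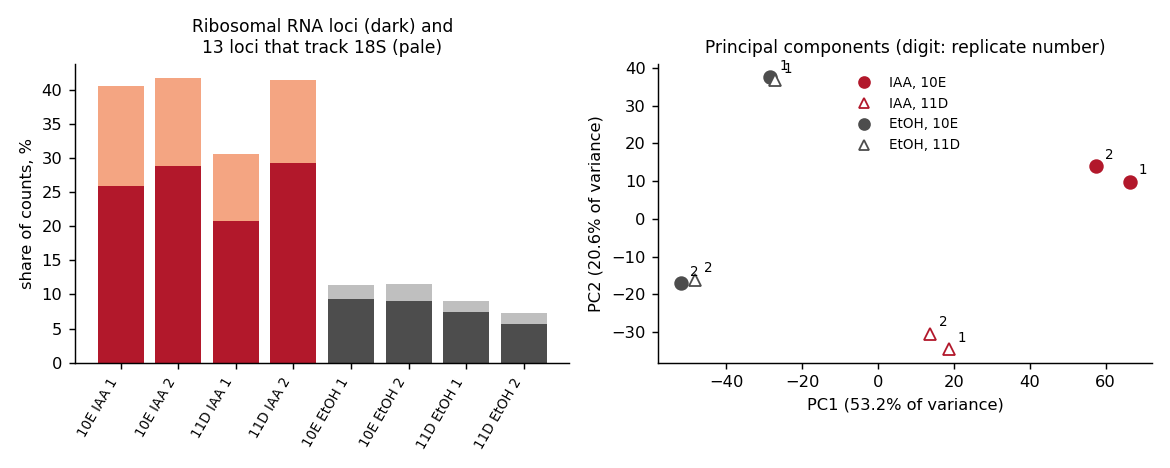
Left, the share of all counts (%) held by ribosomal RNA loci (dark) and by 13 loci that track 18S (pale) in each of the 8 libraries, IAA in red and EtOH in grey. Right, the first 2 principal components of the nascent RNA levels, 1 point per library. The 4 IAA libraries hold 20.8 to 29.3% ribosomal RNA against 5.73 to 9.27% in the EtOH libraries, and the EtOH libraries of both lines fall into a replicate 1 pair and a replicate 2 pair.

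The comparison of IAA with EtOH washout libraries covered 15110 of 55291 gene names. It called 1228 genes higher (8.13% of those tested) and 1074 lower (7.11%) in IAA libraries, at a false discovery rate (FDR, the Benjamini-Hochberg adjusted p of edgeR's quasi-likelihood test with line as a block) of 0.05. A change of at least 2-fold was reached by 680 of the higher and 595 of the lower genes, and at least 8-fold by 93 and 17. The 4 IAA libraries did not overlap the 4 EtOH libraries for 2103 of the 2302 called genes, which were picked on these same libraries. The share without overlap was not counted over all tested genes, so this count does not measure how well the changes repeat. The split between directions depended on the scaling: with library totals outside the ribosomal RNA loci in place of TMM, the median log2 change of all genes moved to -0.36 from -0.06, and 614 genes were called higher and 2733 lower, 18.3% of the calls being higher in place of 53.3%. Those totals left out the ribosomal RNA loci only. The loci described above that track ribosomal RNA stayed in them, at a mean of 12.4% of all counts in IAA and 1.95% in EtOH libraries. This scaling is therefore not free of the difference in library composition, and the part of those loci in the shift was not tested. Because the split depended on the scaling, the groups below are described relative to the typical gene of the same libraries. Of the 33 gene lists with a median log2 change above 0, 20 had one below 0 under that scaling: the formative, ERK feedback, Nodal, BMP, Hippo, LIF, p53, NRF2, translation factor, aminoacyl-tRNA synthetase, proteasome, histone chaperone, remodeller, Polycomb, DNA methylation, splicing, Mediator and Integrator, replication licensing, mitosis and DNA repair lists. No list turned the other way. Counts given for a list with any 1 library left out are the lowest and the highest of 8 comparisons. Values of the 4 libraries of a group are given as CPM on TMM-scaled totals, in the order 10E replicates 1 and 2, then 11D replicates 1 and 2. Of the 153 called genes named in the text, 76 lost the call with at least 1 library left out, 70 of them without 10E IAA 1 and 58 without 11D IAA 1, with a highest FDR of 0.0508 to 0.179. Called genes given with an SE kept it with any 1 library left out, and those given with a log2 change alone include the 76.

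Neither FACT gene was called by edgeR's test. Supt16 (chr14:52160414-52197416 in mm10, minus strand), the gene of the degraded subunit, had 117, 132, 109 and 91.5 CPM in IAA libraries and 56.9, 77.3, 85.1 and 90.5 CPM in EtOH libraries. All IAA values lay above all EtOH values, although the nearest libraries were almost level, and the change missed the threshold (log2 0.54 ± 0.19 SE, FDR 0.0847). DESeq2 put it just past the threshold (adjusted p 0.0444). In line 10E alone the log2 change was 0.92 and in 11D alone 0.19. Ssrp1, the partner subunit, had 47.7, 39.0, 44.5 and 40.7 CPM in IAA libraries and 39.8, 39.7, 38.6 and 32.4 CPM in EtOH libraries, groups that overlapped (log2 0.19, FDR 0.416). IAA acts on the SPT16 protein, so these RNA levels do not check the labels of the treatment.

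The naive pluripotency network was called at about the share of all genes, 5 of 30 (16.7%) against 15.2%. None of the 5 tested core factors passed edgeR's test or DESeq2's, with 1 at an unadjusted p under 0.05, and the naive network had 3 members higher and 2 lower, with a median log2 change of -0.02. With any 1 library left out it had 1 to 3 higher and 1 to 3 lower. Pou5f1, the gene of OCT4, had 133, 109, 91.5 and 103 CPM in IAA libraries and 150, 114, 120 and 98.6 CPM in EtOH libraries, groups that overlapped (log2 -0.15, FDR 0.579). Nanog, a homeobox factor of the naive state, had 101, 124, 90.1 and 101 CPM in IAA libraries, below the 147, 130, 143 and 138 CPM of EtOH libraries without overlap. Its log2 change of -0.43 missed the threshold (FDR 0.0947) and passed it with library totals as the scaling (log2 -0.72, FDR 0.00684). Esrrb, an orphan nuclear receptor of the naive network, had 1440, 1459, 1378 and 1578 CPM in IAA libraries and 2402, 1297, 2117 and 1198 CPM in EtOH libraries. The IAA values lay between the replicate 2 and the replicate 1 EtOH libraries of both lines, and no difference was called (log2 -0.26, FDR 0.499). Of the naive members that did pass, Fgf4, the growth factor that primes cells to leave the naive state, fell (log2 -1.20 ± 0.20, FDR 0.00369), as did Tcl1, whose call was lost without the library 10E IAA 1 (log2 -0.87, FDR 0.0716 without it). Trim28, the corepressor that silences retroviruses, rose (log2 1.01 ± 0.17, FDR 0.00371). Of 18 formative and primed genes 4 were called (22.2%): the de novo methylation genes Dnmt3l (log2 1.05) and Dnmt3b (log2 0.62) and Etv4 (log2 1.70) rose, and Sox4 (log2 -1.38) fell, with 1 to 3 higher and 0 to 1 lower with any 1 library left out.

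Genes of the 2-cell-like state formed the list with the largest share of calls. This state is a rare, reversible condition of stem cell cultures with transcripts of the early embryo, among them the Zscan4 cluster, which acts at telomeres. Of 23 listed genes 11 were tested, of which 9 rose and none fell, with a median log2 change of 2.25. The low-count filter needs counts in only as many libraries as a group holds. Genes near 0 in EtOH libraries, such as Usp17le here or Fas below, could be tested only where IAA libraries were high, which set their direction. The share of calls in this list therefore cannot be weighed against those of other lists. All 23 genes summed to 274, 293.8, 236.3 and 209.3 CPM in IAA libraries and 233.1, 194.7, 272.6 and 209.2 CPM in EtOH libraries, with overlap. The values of Zscan4d and Usp17le that follow are small beside these sums, so the sums do not follow those genes. Zscan4d (chr7:11161374-11166159, minus strand) had 6.67, 8.83, 8.57 and 6.89 CPM in IAA libraries and 1.31, 1.34, 1.04 and 0.66 CPM in EtOH libraries. The groups were far apart in both lines (log2 2.86 ± 0.31, FDR 0.000399), at 2.57 in 10E alone and 3.18 in 11D alone. The ubiquitin protease gene Usp17le had 16.7, 9.88, 5.65 and 5.78 CPM in IAA libraries and 0.309, 0.185, 0.329 and 0.330 CPM in EtOH libraries (log2 4.87 ± 0.43, FDR 7.68e-05). Usp17la, Zscan4a, Zscan4e, Zscan4f, Gm8300, Tmem92 and Arg2 rose by log2 1.74 to 3.63. The count was 8 higher and 1 lower with library totals as the scaling, and 6 to 9 higher with any 1 library left out. Zscan4 and Usp17l genes stand in near-identical copies, so values are of the name as counted. In bulk libraries, more cells in this state and more RNA per cell cannot be told apart.

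The list of Wnt ligands, antagonists and targets had 4 of 20 members higher (20%, against 8.13% of all tested genes) and none lower, and 3 higher with library totals as the scaling. Wnt8a, Dkk1 and Wnt3 passed the low-count filter only through the IAA libraries, which set their direction. The share of this list therefore cannot be weighed against that of all tested genes. Wnt8a, a ligand of early mesoderm, had 5.10, 3.95, 5.45 and 4.45 CPM in IAA libraries and 0.155, 0.231, 0.274 and 0.330 CPM in EtOH libraries (log2 4.19 ± 0.39, FDR 0.000117). Dkk1 (chr19:30545863-30549665, minus strand), a secreted antagonist of Wnt receptors, had 5.88, 4.22, 3.23 and 2.56 CPM against 0.309, 0.185, 0.274 and 0.0472 CPM (log2 4.25 ± 0.49, FDR 0.00053), from 117 counts over the IAA libraries and 14 over the EtOH libraries. The ligand gene Wnt3 rose by log2 3.13 ± 0.50 (FDR 0.00315) and Nkd1, an intracellular antagonist, by log2 0.78 (FDR 0.00971). Nkd1 lost its call with library totals as the scaling (FDR 0.0707). Both groups were grown with CHIR99021, a GSK3 inhibitor that switches the pathway on downstream of its receptors. The Nodal list had no call among 14 members with edgeR, where 3 had an unadjusted p under 0.05, and 1 with DESeq2, and the BMP list had 1 higher and 2 lower of 15. With any 1 library left out the Nodal list had 0 to 2 higher and the BMP list 0 to 2 lower.

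**Figure D2:**
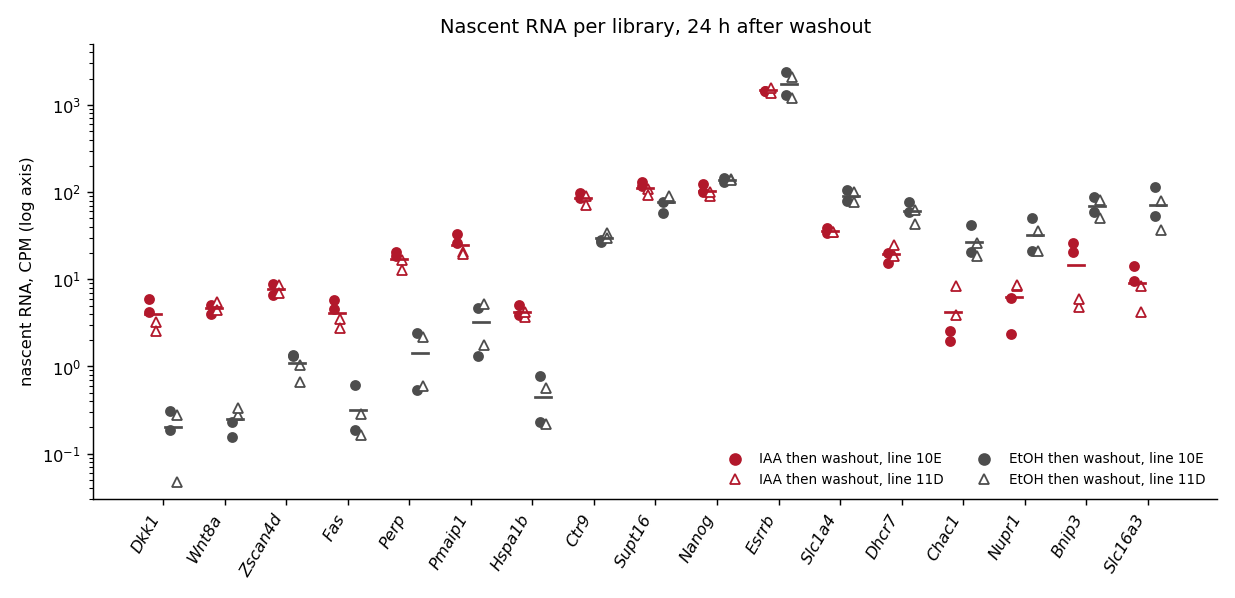
Nascent RNA (CPM, log axis) of 17 genes in each library, with IAA in red left of EtOH in grey for each gene, line 10E as circles and line 11D as open triangles, and a bar at the group mean. Dkk1 to Ctr9 lie higher in all IAA libraries, Slc1a4 to Slc16a3 lie lower in all IAA libraries, and Supt16, Nanog and Esrrb between them were not called.

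Among p53 targets 6 of 26 tested members rose and none fell, with a median of 0.15 that became -0.16, with 6 higher and 2 lower, when library totals set the scale. The members that rose include death genes. Fas, a death receptor, had 4.51, 5.80, 3.53 and 2.78 CPM in IAA libraries and 0.619, 0.185, 0.165 and 0.283 CPM in EtOH libraries (log2 3.75 ± 0.45, FDR 0.000644). Perp, a desmosome and apoptosis gene, had 20.4, 18.3, 16.4 and 12.7 CPM against 0.541, 2.41, 0.604 and 2.17 CPM (log2 3.50 ± 0.44, FDR 0.000809). Pmaip1, which encodes the BH3-only protein NOXA, had 32.8, 26.1, 20.6 and 19.7 CPM against 1.31, 4.67, 1.76 and 5.14 CPM (log2 2.88 ± 0.40, FDR 0.00148). In both lines the replicate 2 EtOH library had more Perp and Pmaip1 than replicate 1, and all IAA libraries stood above both. The kinase genes Plk2 (log2 2.40) and Plk3 (log2 1.57) and the p53 ligase gene Mdm2 (log2 0.89) rose as well. Cdkn1a, the cell cycle inhibitor p21 and a standard p53 target, had 187, 125, 170 and 192 CPM in IAA libraries and 183, 249, 140 and 151 CPM in EtOH libraries, with overlap (log2 -0.08, FDR 0.836). Among apoptosis regulators, which share Pmaip1 with that list, Bcl2l11 (BIM) rose to 120, 91.7, 104 and 99.2 CPM against 47.6, 51.0, 33.3 and 43.4 CPM (log2 1.25 ± 0.17, FDR 0.00142), and Bmf (log2 -1.24) and Casp9 (log2 -0.69) fell. DNA repair genes gave 0 calls among 23 with edgeR's test, where 4 had an unadjusted p under 0.05, and 2 with DESeq2.

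Heat shock genes had 4 of 15 members higher (26.7%, against 8.13% of all tested genes) and none lower. The inducible chaperone Hspa1b, HSP70, had 3.92, 5.01, 3.73 and 4.23 CPM in IAA libraries and 0.232, 0.787, 0.220 and 0.566 CPM in EtOH libraries (log2 3.16 ± 0.45, FDR 0.00164), and its near-copy Hspa1a rose by log2 3.30. Hsp90ab1, the constitutive HSP90, had 934, 767, 677 and 584 CPM against 374, 467, 317 and 352 CPM (log2 0.96 ± 0.18, FDR 0.0057). Hsph1 (log2 1.04) lost its call without the library 10E IAA 1 (FDR 0.0609). Hspa1a and Hspa1b, with 14 and 36 counts over the EtOH libraries, passed the low-count filter only through the IAA libraries. That set their direction, so the share of this list cannot be weighed against that of all tested genes. Of 16 endoplasmic reticulum stress genes 4 rose, the chaperone genes Hyou1 (log2 1.17), Calr (log2 0.84) and Hspa5 (BiP, log2 0.72) and Creld2 (log2 0.56), and 2 fell, Herpud1 (log2 -1.32) and the transcription factor gene Xbp1 (log2 -0.84). With library totals as the scaling this list had 1 higher and 3 lower, Hyou1 alone of the 4 keeping its call, and with any 1 library left out 1 to 4 higher and 0 to 2 lower. The heat shock element, searched on both strands, was found in the promoter window of 4 of 11 heat shock genes, against 0.603% of all windows, and 1 of those 4 was called higher against 2 of the 7 without it.

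In the integrated stress response phosphorylation of eIF2 favours translation of ATF4, which switches on genes for amino acid synthesis and uptake. Of 24 tested members of its list 12 fell and 1 rose, with a median log2 change of -0.75, against -0.06 over all genes. Chac1, a glutathione-degrading enzyme, had 2.55, 1.98, 3.93 and 8.34 CPM in IAA libraries and 20.3, 42.3, 18.7 and 26.1 CPM in EtOH libraries (log2 -2.71 ± 0.43, FDR 0.00293). Nupr1, a stress-induced nuclear protein, had 6.08, 2.37, 8.27 and 8.67 CPM against 21.0, 49.97, 20.9 and 35.5 CPM (log2 -2.37 ± 0.40, FDR 0.00382). Trib3, a pseudokinase that restrains ATF4, had 9.22, 8.96, 12.6 and 11.9 CPM against 25.7, 34.4, 19.3 and 24.5 CPM (log2 -1.27 ± 0.23, FDR 0.00503). No IAA library reached an EtOH library for any of these. Stc2 (log2 -2.06), Vldlr (log2 -2.02), the proline enzyme genes Pycr1 (log2 -1.73) and Aldh18a1 (log2 -0.98), the serine enzyme genes Phgdh (log2 -1.78), Psph (log2 -0.80) and Psat1 (log2 -0.75), the phosphatase subunit Ppp1r15a (log2 -1.04) and Atf4 itself (log2 -0.76) also fell. The collagen receptor Ddr2 was the member that rose (log2 1.42). The list median was -1.04 in 10E alone and -0.37 in 11D alone, where 14 and 3 members were called lower. The test of the difference between lines called none of the list with edgeR and only Phgdh with DESeq2. Without the library 10E IAA 1, 7 members were called lower, and Phgdh was not among them (FDR 0.0566).

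The promoters of these genes are shown because ATF4 with its C/EBP partners is known to bind the composite element TGATGNAA. A search of RefSeq windows (GRCm38.p6, 250 bases before to 50 after each start, both strands) found it in 3.97% of 32851 windows and in 4.51% of 27025 gene symbols. It was found in 7 of the 22 integrated stress response genes with a window (31.8%), namely Trib3, Chac1, Asns, Pycr1, Slc7a11, Nupr1 and Vldlr. Of these 7, 5 were called lower, and 7 of the 14 tested genes without a match were called lower. The windows of 4 members follow, each 5′ to 3′ on the strand of the gene, with the match in capitals. A match is a description of the letters and not a bound site.
Chac1 (chr2:119350992-119351291, plus strand): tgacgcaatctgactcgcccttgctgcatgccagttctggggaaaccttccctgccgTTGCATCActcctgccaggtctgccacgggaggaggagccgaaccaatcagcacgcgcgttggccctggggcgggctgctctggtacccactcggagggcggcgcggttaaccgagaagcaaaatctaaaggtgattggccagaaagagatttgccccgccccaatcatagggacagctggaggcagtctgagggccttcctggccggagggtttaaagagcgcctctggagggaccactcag
Trib3 (chr2:152344011-152344310, minus strand): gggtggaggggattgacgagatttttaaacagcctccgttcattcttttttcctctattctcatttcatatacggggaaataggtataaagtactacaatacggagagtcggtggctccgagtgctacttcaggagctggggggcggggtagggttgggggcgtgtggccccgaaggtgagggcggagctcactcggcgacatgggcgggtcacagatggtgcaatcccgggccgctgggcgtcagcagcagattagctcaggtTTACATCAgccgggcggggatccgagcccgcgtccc
Nupr1 (chr7:126625421-126625720, minus strand): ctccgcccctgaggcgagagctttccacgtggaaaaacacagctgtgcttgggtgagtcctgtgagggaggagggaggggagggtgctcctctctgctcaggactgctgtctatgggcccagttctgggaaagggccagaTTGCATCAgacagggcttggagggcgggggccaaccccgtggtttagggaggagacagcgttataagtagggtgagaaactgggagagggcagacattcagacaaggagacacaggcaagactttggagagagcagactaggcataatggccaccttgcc
Pycr1 (chr11:120643699-120643998, minus strand): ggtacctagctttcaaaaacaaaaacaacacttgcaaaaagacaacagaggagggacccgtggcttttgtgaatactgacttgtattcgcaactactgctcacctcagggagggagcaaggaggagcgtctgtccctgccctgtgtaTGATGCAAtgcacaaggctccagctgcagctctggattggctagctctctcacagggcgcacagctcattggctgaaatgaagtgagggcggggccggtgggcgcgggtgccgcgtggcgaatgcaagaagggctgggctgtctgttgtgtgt
Counted from the RefSeq start, the first base of the match lies at -193 in Chac1, 15 in Trib3, -110 in Nupr1 and -103 in Pycr1. In Pycr1 the element reads forward, and in the other members the capitals are its reverse complement.

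Amino acid transporters gave 1 higher and 2 lower of 19 (5.26% and 10.5%, against 8.13% and 7.11% of all tested genes). The neutral transporter Slc1a4 (ASCT1) had 33.9, 38.7, 35.2 and 34.9 CPM in IAA libraries and 79.0, 106, 78.0 and 100 CPM in EtOH libraries, and its IAA values were nearly equal in both lines (log2 -1.35 ± 0.17, FDR 0.000831). The glycine transporter Slc6a9 fell by 1.82 on the log2 scale, and Slc7a8, which exchanges large neutral amino acids, rose by log2 1.59. With any 1 library left out 2 to 4 transporters were lower, the highest without 11D EtOH 1. Of the aminoacyl-tRNA synthetases, Sars (log2 -1.04) and Cars (log2 -0.65) fell, while Vars (log2 0.93), Qars (log2 0.64), Eprs (log2 0.58) and Hars (log2 0.54) rose. That list had 1 higher and 5 lower with library totals as the scaling, and 1 to 3 higher and 1 to 2 lower with any 1 library left out.

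All calls by edgeR in the hypoxia and glycolysis lists were in the lower direction. Hypoxia-inducible factors bind the core ACGTG near genes for glucose use and mitophagy. Of 14 tested hypoxia genes 7 fell and none rose (median -0.73), and of 21 glycolysis genes 8 fell and none rose (median -0.54). Slc16a3, the lactate exporter MCT4, had 14.3, 9.49, 4.24 and 8.45 CPM in IAA libraries and 53.9, 113, 36.5 and 80.02 CPM in EtOH libraries (log2 -3.01 ± 0.35, FDR 0.000507). Bnip3, a mitophagy receptor, had 26.3, 20.8, 4.84 and 6.01 CPM against 59.7, 86.9, 51.1 and 80.3 CPM (log2 -2.57 ± 0.38, FDR 0.00194). Both had more RNA in the replicate 2 than in the replicate 1 EtOH library of each line, and the fall of Bnip3 was larger in 11D (log2 -3.60) than in 10E (log2 -1.61), a difference that edgeR's test did not call (FDR 0.261) and DESeq2 did (adjusted p 0.0092). The further hypoxia genes that fell were Ankrd37, Ddit4, Ndrg1, Vegfa, Egln1 and Mxi1, at log2 -1.91 to -0.60. In glycolysis Pfkp, Gapdh, Tpi1, Eno1, Pgam1, Ldha and Hk1 fell by 0.70 to 0.90 on the log2 scale. These counts depended on single libraries: with any 1 left out 1 to 6 hypoxia genes were called lower, the lowest without 10E IAA 1, and 2 to 8 glycolysis genes, the lowest without 11D IAA 1.

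The core ACGTG is short and was found in 19.6% of all windows. It was found in 11 of 14 hypoxia genes with a window (78.6%), of which 6 of 10 tested were called lower and 0 of 2 tested without it, and in 13 of 20 glycolysis genes (65.0%), of which 5 of 13 were called lower and 3 of 7 without it. The windows of the hypoxia and glycolysis members with the largest fall follow, with the matches in capitals.
Slc16a3 (chr11:120948817-120949116, plus strand): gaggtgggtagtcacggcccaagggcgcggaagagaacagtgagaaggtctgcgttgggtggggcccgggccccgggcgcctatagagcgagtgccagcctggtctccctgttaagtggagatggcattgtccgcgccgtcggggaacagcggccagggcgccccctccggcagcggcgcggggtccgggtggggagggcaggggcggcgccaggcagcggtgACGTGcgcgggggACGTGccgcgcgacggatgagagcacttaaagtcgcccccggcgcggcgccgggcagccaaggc
Bnip3 (chr7:138909457-138909756, minus strand): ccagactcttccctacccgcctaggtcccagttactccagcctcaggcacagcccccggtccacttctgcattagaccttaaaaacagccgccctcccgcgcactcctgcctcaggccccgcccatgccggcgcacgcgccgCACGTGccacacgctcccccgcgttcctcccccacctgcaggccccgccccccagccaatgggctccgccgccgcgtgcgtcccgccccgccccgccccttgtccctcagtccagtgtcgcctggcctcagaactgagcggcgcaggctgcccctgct
In Slc16a3 the matches start at -27 and -14 from the RefSeq start. In Bnip3 a palindrome gives a match on each strand, at -108 and -107.

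Sterol and fatty acid synthesis genes had 8 of 25 members lower and 2 higher (median -0.54). Dhcr7, an enzyme of the end of cholesterol synthesis, had 20.01, 15.5, 18.7 and 24.8 CPM in IAA libraries and 76.4, 59.7, 61.8 and 43.4 CPM in EtOH libraries, without overlap (log2 -1.60 ± 0.22, FDR 0.00129). Fdps, Scd2, Msmo1, Pmvk, Scd1 and Sc5d fell by 0.66 to 1.42 on the log2 scale. Fasn (log2 0.72) and Acly (log2 0.62), which make fatty acids and their precursor, rose, a direction that library totals as the scaling did not call. The count lower was 3 without the library 10E IAA 1 and 13 without 11D EtOH 2.

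Of 82 tested genes of cytosolic ribosomal proteins 36 fell and none rose (median -0.61), and their summed level was 6297, 5140, 7089 and 8124 CPM in IAA libraries and 10960, 9914, 10020 and 8088 CPM in EtOH libraries. Line 11D IAA 2 overlapped the EtOH range and the other IAA libraries lay below it. Rpl39 had 20.2, 19.2, 30.6 and 42.7 CPM against 78.4, 83.5, 74.2 and 66.7 CPM (log2 -1.48 ± 0.23, FDR 0.00296). The list median was -0.90 in 10E and -0.29 in 11D, no member was called in 11D alone, and with any 1 library left out 4 to 44 were called, the lowest without 10E IAA 1. These genes are short (median 3.27 kb), and 23 were called lower and 1 higher, with a median of -0.35, after the trend with exonic share and length was removed. Mitochondrial ribosomal protein genes had 1 higher and 4 lower of 75, and 1 to 6 lower with any 1 library left out. Their 5.33% lower is below the 7.11% of all tested genes. Ribosome biogenesis and RNA polymerase I genes had 8 of 36 higher and none lower, and 4 to 10 higher with any 1 library left out, the lowest without 10E IAA 1. Heatr1, which acts in early processing of ribosomal RNA, had 209, 183, 134 and 115 CPM in IAA libraries and 65.3, 52.3, 64.8 and 51.1 CPM in EtOH libraries (log2 1.42 ± 0.19, FDR 0.00139). Utp20, Rrp12, Rrn3 and Nolc1 rose by log2 0.91 to 1.07. With library totals as the scaling, 5 of this list were higher and 2 lower. Translation factor genes had 8 of 54 higher and none lower, a median of 0.15 that turned to -0.14 with 1 higher and 5 lower when library totals set the scale. Only 1 translation factor gene was called higher without 10E IAA 1, and 1 without 11D IAA 1. Eif3c, a scaffold subunit of initiation factor 3, rose by log2 1.00 ± 0.15 (FDR 0.00272).

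The lists of the transcription machinery that FACT works beside had calls in the higher direction only, which held for Mediator and Integrator, RNA polymerase II and remodeller genes but not for the others with library totals as the scaling. The PAF complex and elongation factor list had 3 of 22 higher and none lower (median 0.32). Ctr9 (chr7:111028951-111056377, plus strand), the scaffold of the PAF complex, had 98.3, 86.4, 89.7 and 70.8 CPM in IAA libraries and 26.7, 28.3, 33.8 and 29.5 CPM in EtOH libraries, well apart in both lines (log2 1.54 ± 0.17, FDR 0.000399). Paf1 (log2 1.23) and Supt6 (log2 1.16), a histone chaperone of elongation, also rose. Mediator and Integrator subunits had 7 of 43 higher and none lower, and 3 higher without 10E IAA 1 or without 11D IAA 1. Ints1, the largest Integrator subunit, had 118, 95.8, 60.9 and 49.3 CPM against 28.8, 30.7, 23.5 and 23.7 CPM (log2 1.53 ± 0.18, FDR 0.000644), and Ints2 (log2 1.04) and Ints13 (log2 0.82) rose. Of 13 RNA polymerase II subunits, Polr2a (log2 1.07) and Polr2b (log2 0.93) rose, the call of Polr2a being lost without 10E IAA 1 (FDR 0.0555). Most of that list went the other way without a call: 11 of the 13 had a log2 change below 0 and 2 above, with a median of -0.22. Prpf8, the core protein of the spliceosome, had 340, 293, 231 and 163 CPM against 84.3, 106, 75.5 and 87.0 CPM (log2 1.5 ± 0.19, FDR 0.000943), as 1 of 5 higher members among 68 splicing genes. That share, 7.35%, is below the 8.13% of all tested genes, and the splicing list had 1 higher and 6 lower with library totals as the scaling and 1 to 5 higher with any 1 library left out. The remodeller genes Chd4 (log2 1.13), Ep400 (log2 1.08), Chd1 (log2 0.78) and Chd8 (log2 0.69) rose, among 21, with 2 to 5 higher with any 1 library left out. Of 20 histone chaperones other than FACT, Hira (log2 0.99), Ubn1 (log2 0.78) and Supt6 rose. With library totals as the scaling the medians of the Mediator and Integrator, remodeller, splicing and histone chaperone lists, 0.15, 0.29, 0.10 and 0.16, became -0.14, -0.03, -0.20 and -0.14, and the PAF and histone chaperone lists had 1 member lower each.

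**Figure D3:**
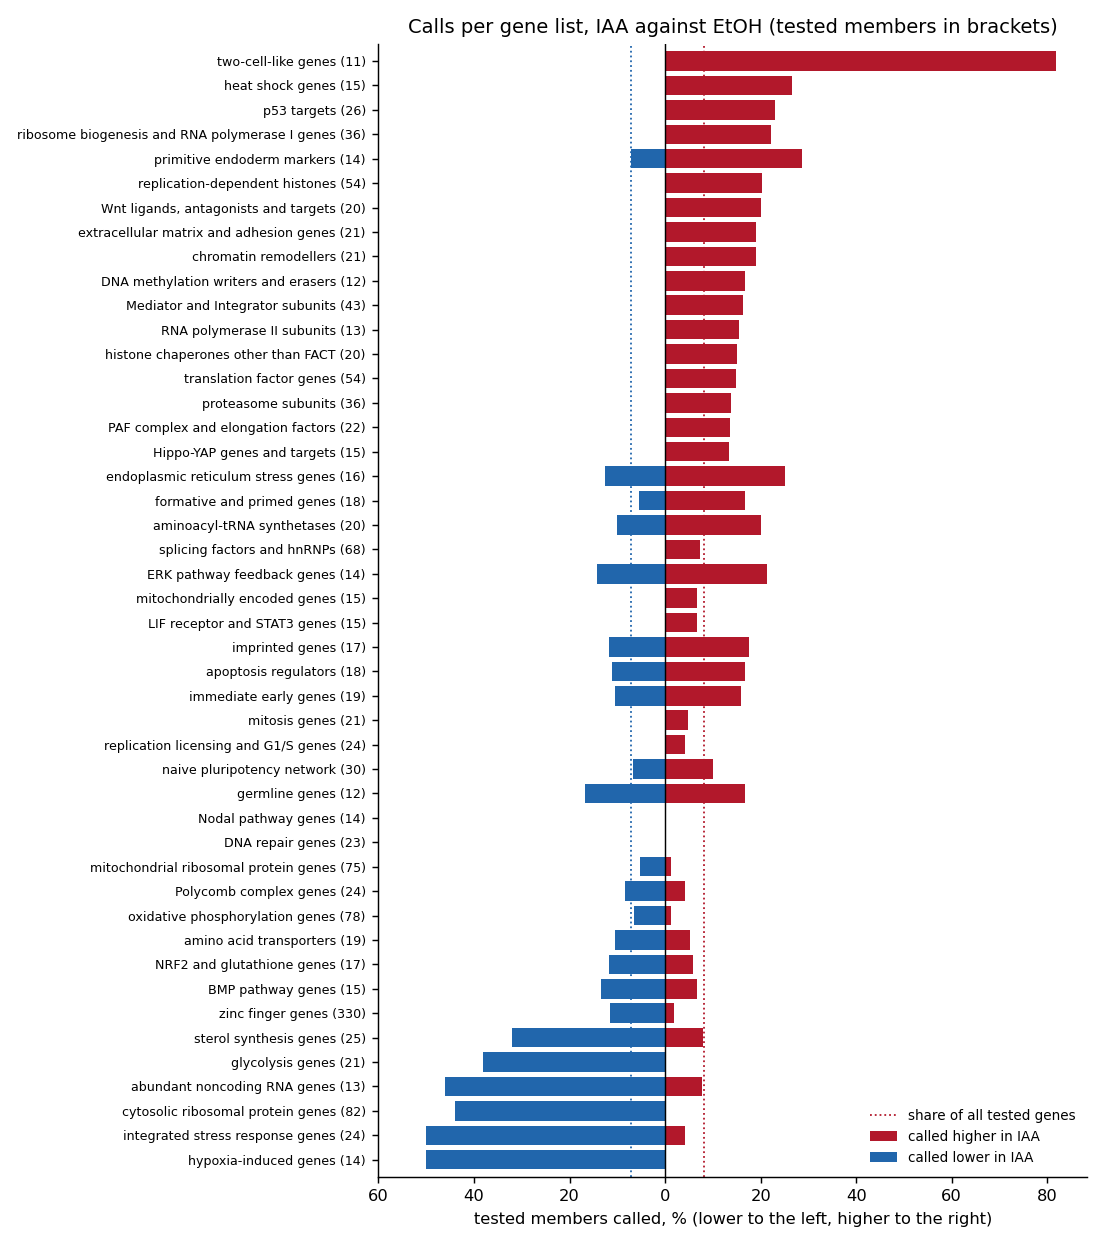
Share of the tested members (%) of each gene list called higher (red, to the right) or lower (blue, to the left) in IAA against EtOH libraries, with the number tested in brackets. Dotted lines mark the shares over all tested genes, 8.13% higher and 7.11% lower. The 2-cell-like list reaches furthest to the right, and the hypoxia and integrated stress response lists furthest to the left.

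Of 54 tested replication-dependent histone genes 11 rose and none fell (median 0.51), a list trimmed after its values were seen. The list median was -0.17 in 10E and 1.02 in 11D, with 3 called lower and none higher in 10E alone, and 17 called higher and none lower in 11D alone. The test of the difference between lines called none of the list with edgeR and 1, H2bc12, with DESeq2. Their summed level was 1066, 713.9, 1171 and 1458 CPM in IAA libraries and 722.1, 1118, 578.1 and 699.7 CPM in EtOH libraries, where 10E EtOH 2 stood above the other EtOH libraries. H4c4 had 64.3, 38.9, 66.9 and 85.8 CPM in IAA libraries and 23.7, 43.9, 19.9 and 26.0 CPM in EtOH libraries, which overlapped in 10E only (log2 1.17, FDR 0.0226, and 0.0842 without 10E IAA 1). With any 1 library left out 1 to 20 members were called, the lowest without 11D IAA 1, and none with library totals as the scaling. Replication licensing genes had 1 higher of 24 and mitosis genes 1 higher of 21, with none lower in either list, against 3 and 0 lower with library totals as the scaling. These shares higher, 4.17% and 4.76%, are below the 8.13% of all tested genes.

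Zinc finger genes (symbols Zfp with a number), many of which encode KRAB repressors of transposable elements, had 38 of 330 members lower and 6 higher (median -0.26), a share of 11.5% lower against 7.11% of all genes. Zfp773 had 3.92, 5.53, 11.6 and 11.5 CPM in IAA libraries and 31.0, 52.6, 29.4 and 34.6 CPM in EtOH libraries (log2 -2.23 ± 0.33, FDR 0.00216). Zfp316 fell too (log2 -1.54), while Zfp677 (log2 2.94) and Zfp423 (log2 1.41) rose. The number lower was 11 to 40 with any 1 library left out, the lowest without 10E IAA 1. Of 13 abundant noncoding RNA genes, Snhg12, Malat1, Dancr, Lncenc1, Mir17hg and Snhg1 fell by 0.76 to 0.96 on the log2 scale and the telomerase RNA gene Terc rose (log2 1.42); with any 1 library left out 0 to 7 members were lower.

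Signalling lists held calls in both directions. Of immediate early genes, Junb (log2 1.49), Fosl2 (log2 1.44) and Ccn1 (log2 1.5) rose and Maff (log2 -1.45) and Klf10 (log2 -0.92) fell, among 19, with 2 to 6 higher and 1 to 5 lower with any 1 library left out. Of ERK feedback genes, Phlda1 (log2 1.90), Etv4 (log2 1.70) and Dusp14 (log2 0.82) rose and Spry1 (log2 -1.08) and Fgf4 fell, among 14, with 1 to 5 higher with any 1 library left out. The aryl hydrocarbon receptor list had 3 of 6 higher, but 1 higher with library totals as the scaling, without 10E IAA 1 or without 11D IAA 1. Cyp1a1, its standard target enzyme, had 5.10, 1.58, 10.4 and 7.01 CPM in IAA libraries and 0, 0.833, 0.549 and 0.566 CPM in EtOH libraries (log2 3.41 ± 0.65, FDR 0.00686), with Ahrr (log2 1.62) and Tiparp (log2 0.71) beside it. Of 14 tested genes in the primitive endoderm list 4 rose (28.6% against 8.13% of all tested genes), Cubn (log2 2.14), Dab2, Pdgfra and Sparc (log2 0.61), and Srgn fell (log2 -2.09), with 1 to 5 higher with any 1 library left out. Its defining markers summed to 15.1 to 16.5 CPM in IAA libraries and 8.97 to 12.1 CPM in EtOH libraries, Pdgfra and Dab2 being the called ones of 4 tested. None of the other markers, Gata4, Gata6, Sox17, Sox7 and Foxa2, was called. With 1 library left out at a time, Pdgfra lost its call in 6 comparisons and Dab2 in 3. Trophoblast markers summed to 14.3 to 18.4 CPM and 11.7 to 17.4 CPM, with no call by edgeR among the 3 tested. Neural markers summed to 14.5 to 18.3 CPM in IAA libraries and 7.19 to 29.3 CPM in EtOH libraries, with Sox1 and Tubb3 at 0 in all libraries. Mesoderm markers summed to 1.61 to 7.26 CPM in IAA libraries and 2.22 to 5.72 CPM in EtOH libraries, with Mesp1 at 0 in all, while the wider mesoderm list had 2 of 7 higher, Kdr (log2 1.90) and Wnt3. Fibroblast markers summed to 12 to 18.8 CPM in IAA libraries and 15.3 to 20.4 CPM in EtOH libraries. The part of other cell types in these results was not tested.

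Some of the largest changes fell on genes that moved with the share of ribosomal RNA. Il31ra, a cytokine receptor gene and 1 of the 13 loci that track 18S, had 847, 1146, 524 and 999 CPM in IAA libraries and 66.3, 69.5, 59.9 and 54.4 CPM in EtOH libraries (log2 3.81 ± 0.24, FDR 5.38e-06). Cd44, a hyaluronan receptor, had 232, 336, 150 and 354 CPM against 18.8, 27.6, 17.7 and 24.7 CPM (log2 3.59 ± 0.29, FDR 4.08e-05). Both were lowest, among IAA libraries, in 11D IAA 1, which also had the lowest ribosomal RNA share, 20.8% against 26.0, 28.8 and 29.3% in the other IAA libraries. Arpp21, a gene of an RNA-binding phosphoprotein with the largest called change among genes averaging at least 2 CPM, had 5.10, 5.14, 4.14 and 2.11 CPM against 0.155, 0.0463, 0.165 and 0.0472 CPM (log2 5.24 ± 0.54, FDR 0.000265), and it was lowest where the ribosomal RNA share was highest. Such tracking was not particular to these genes. Over all 1228 higher genes the correlation of log CPM with the 18S share had a median of 0.867, with 36 above 0.97. Zscan4d (0.979) and Dkk1 (0.965) lay near Cd44 (0.967), and Arpp21 had 0.945 over the 8 libraries. The IAA and EtOH libraries form separate clusters in that share, so a relation across the 8 libraries cannot be tested, and the part of ribosomal RNA reads in these values was not tested. With the ribosomal RNA loci removed the calls were 1234 higher and 1075 lower.

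Called genes differed in structure. Genes called higher had a median length of 34.2 kb and an exonic share of 14.7% of the gene body, genes called lower 19.1 kb and 18.6%, and genes not called 24.2 kb and 17.3%. From the shortest to the longest quintile of genes the median log2 change was -0.28, -0.14, -0.01, 0.08 and 0.06. In line 10E alone the medians were -0.53, -0.26, -0.01, 0.23 and 0.40, and in line 11D alone -0.01, 0.04, 0.03, -0.01 and -0.21, with no test of the difference. The quintile with the highest exonic share had medians of -0.23 in both lines together, -0.43 in 10E and 0.02 in 11D. With the trend over exonic share and length removed, 1536 genes were called higher and 1168 lower, and 2089 of the 2302 calls stayed. By biotype, processed transcripts had 34 of 274 lower (12.4%) and 13 higher (4.7%). LincRNAs had 73 of 667 higher (10.9%) and 65 lower (9.7%), and antisense genes 52 of 558 higher (9.3%) and 50 lower (9.0%). The shares over all tested genes were 8.13% higher and 7.11% lower.

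**Figure D4:**
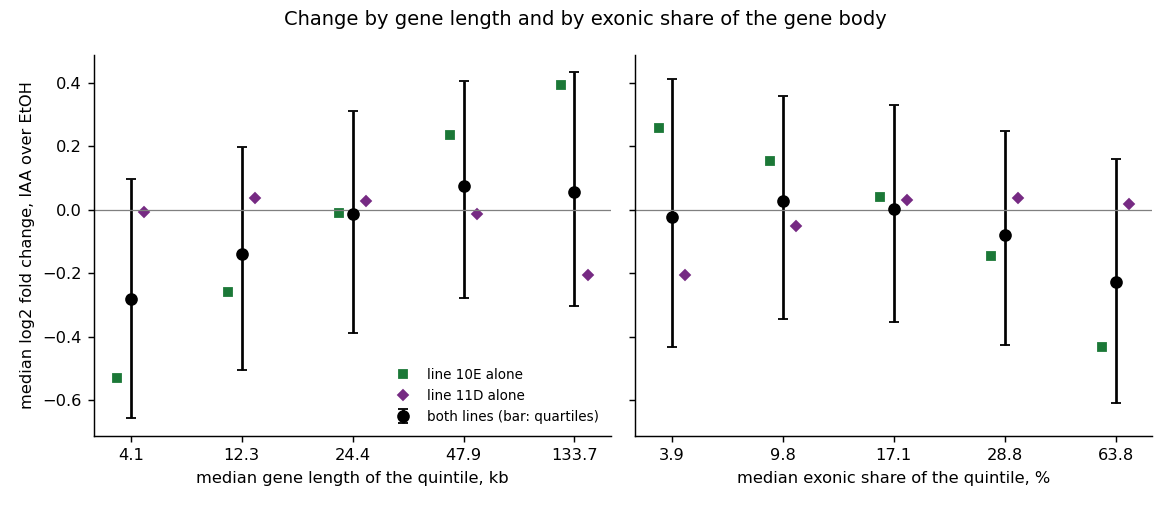
Median log2 change (IAA over EtOH) in quintiles of genes by length (left, kb) and by exonic share of the gene body (right, %), for both lines together (black, bars from the lower to the upper quartile), line 10E alone (green squares) and line 11D alone (purple diamonds). In 10E the median climbs from -0.53 in the shortest quintile to 0.40 in the longest, and in 11D the longest quintile is the lowest at -0.21.

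Of the 2302 called genes, which were picked on both lines together, 2299 had the same sign in 10E alone and 2300 in 11D alone. The median log2 change of the higher genes was 1.23 in 10E and 0.94 in 11D, and of the lower genes -1.23 and -0.89. Tested within a line, 1758 genes were called higher and 1608 lower in 10E, and 279 and 164 in 11D. The test of the difference between lines itself called 0 genes with edgeR, where 2250 genes (14.9%) had an unadjusted p under 0.05 and the lowest FDR was 0.197, and 135 with DESeq2. Of these 135, 31 were higher and 104 lower in 11D than in 10E, and they included the hypoxia genes Bnip3 and Pdk1, the serine enzyme gene Phgdh, whose fall was larger in 10E, and Lefty2, a Nodal antagonist. Genes called in the whole comparison, in each line alone and with any 1 library left out included Wnt8a, Dkk1, Zscan4d, Usp17le, Fas, Perp, Pmaip1, Plk2, Hspa1b, Ctr9, Prpf8, Ints1 and Heatr1 among those higher, and Chac1, Nupr1, Vldlr, Slc1a4, Slc6a9, Slc16a3, Bnip3, Dhcr7 and Zfp773 among those lower.

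The 12 h values of the time course were set beside the recovery values from the authors' deposited table, whose groups and direction are not stated, so its changes are called positive or negative as signed there. That table and the washout comparison share no libraries. Over its 15917 genes with an adjusted p, 8.58% were positive and 12.1% negative in the authors' deposited table. In the 12776 genes held by both tables, 283 of 1035 genes higher after washout (27.3%) had a positive call at 12 h in the authors' deposited table and 4 a negative one, where 8.67% of all common genes were positive. Of 873 genes lower after washout 223 (25.5%) were negative and 14 positive in the authors' deposited table, where 14.6% of all common genes were negative. Read the other way, 810 of the 1107 genes positive in the authors' deposited table (73.2%) and 1644 of the 1871 negative ones (87.9%) were not called after washout. Their median log2 change after washout was 0.37 and -0.18.

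The list counts at the 12 h and washout times are set side by side, with no test between them. In the naive pluripotency network 13 of 30 genes were negative in the authors' deposited table at 12 h, against 2 lower after washout. Esrrb was -2.05, Zfp42 -1.85, Tet2 -1.37, Tbx3 -1.15 and Prdm14 -1.07 (log2) in the authors' deposited table, and their log2 changes after washout were -0.26, -0.10, 0.07, -0.16 and -0.26, none of them called. Of chromatin remodellers 10 of 21, and of DNA repair genes 10 of 23, were negative in the authors' deposited table, and none of either list was lower after washout. Immediate early genes had 10 of 21 positive in the authors' deposited table, with Id2, a helix-loop-helix inhibitor, at 4.47, Ccn2 at 3.57, Fos at 3.14 and Jun at 2.56. After washout the log2 changes of Id2, Ccn2, Fos and Jun were 0.11, 0.97, 0.86 and 0.81 (FDR 0.109 for Ccn2, which DESeq2 called at an adjusted p of 0.0473).

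Some genes were called at both times. Dkk1 was 4.52 (log2) in the authors' deposited table at 12 h and 4.25 after washout, and Ptgs2, cyclooxygenase 2, was 5.06 there and 4.08 after washout. Fas was 3.25, Hspa1a 4.27, Wnt3 2.91 and Pmaip1 2.05 in the authors' deposited table, beside 3.75, 3.30, 3.13 and 2.88 after washout. Chac1 was -2.55 and Slc1a4 -1.14 in the authors' deposited table, beside -2.71 and -1.35 after washout. A further set was called after washout without a call at 12 h: Wnt8a was 0.10, Zscan4d 0.69, Usp17le 1.02, Slc16a3 -0.68, Bnip3 -0.39, Heatr1 0.18 and Prpf8 0.15 in the authors' deposited table. Of cytosolic ribosomal protein genes 1 of 83 was negative and none positive in the authors' deposited table, against 36 of 82 lower after washout. The 12 h values are shrunken toward 0 and were normalized separately, so sizes are given side by side and the difference between the times was not tested.

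**Figure D5:**
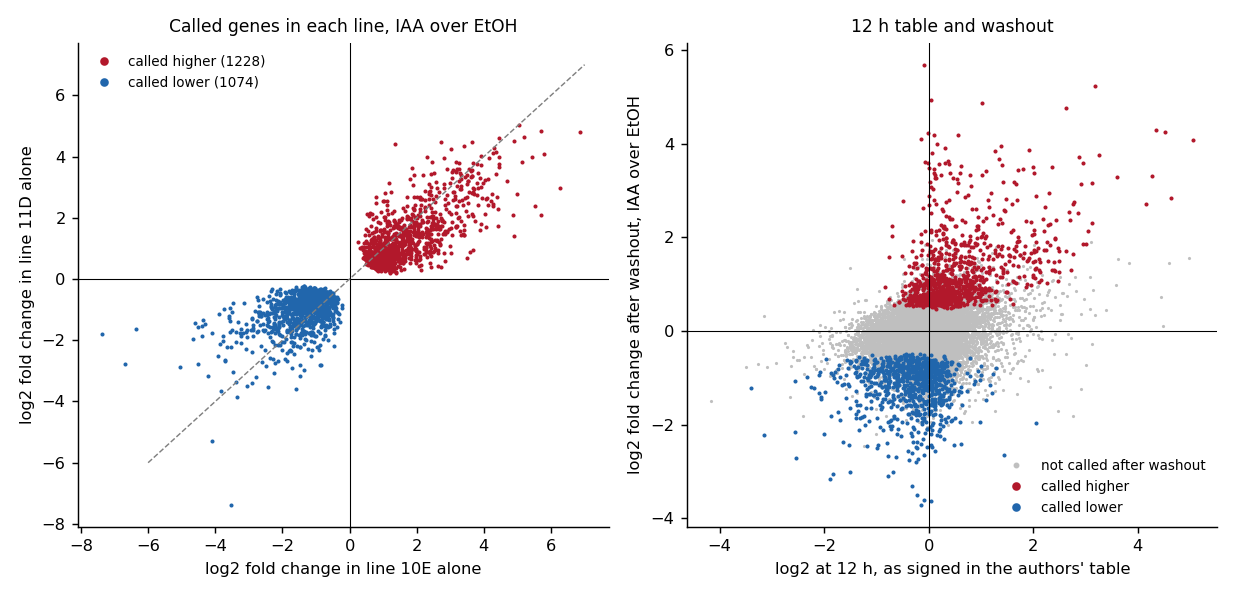
Left, log2 change (IAA over EtOH) of the 2302 called genes in line 10E alone (x) and line 11D alone (y), with the line of equal change dashed; nearly all points share their sign, and most lie nearer 0 in 11D. Right, log2 change after washout (y) against the 12 h value as signed in the authors' deposited table (x) for the genes in both; genes called higher are red, lower blue and not called grey.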

How the data were processed

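The 8 washout libraries are TT-seq libraries of nascent RNA, 4 after IAA and 4 after EtOH, in lines 10E and 11D. The authors deposited raw counts of read pairs per gene. Per the file headers, featureCounts 2.0.1 counted whole genes by name on the reverse strand of mm10 GENCODE, and kept pairs whose ends both mapped. Same-strand overlaps and near-identical copies are therefore uncertain. STAR is named in the submitters' processing notes, and its version is not given in the sources used here. The authors' deposited 12 h and washout tables give shrunken log2 fold changes, each with its p-value, raw and adjusted.

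The counts were tested with edgeR 4.0.16 (quasi-likelihood, TMM, filterByExpr, line as a block, FDR of 0.05) in R 4.3.3, and retested with DESeq2 1.42.0 and under other scalings and filters, with each line alone and with each library left out. SE values are the log2 change over the root of the F statistic. On simulated counts for 15110 genes the test recovered 100% of 4-fold and 87.9% of 2-fold changes, with 10 false calls. The simulation had few changed genes, split evenly between directions, and the same scatter setting for every gene. It held no shift in ribosomal RNA, no replicate effect and no difference between lines in the change. These rates check the code and do not carry over to the real libraries. Exact permutation tests compared library values. Named genes were the 15 highest and 15 lowest of the called genes averaging at least 2 CPM, up to 8 called members per list and a fixed set; genes outside that rule were named after their values were seen. The members and the 53 gene lists were chosen with earlier results of these data known. Whether libraries of 1 line and treatment came from separate cultures is not labelled, and p-values then reflect only how these libraries scatter. Promoters are from RefSeq (GRCm38.p6), and gene structure from GENCODE M21. Tables of the other time points and feature classes were not used here.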

Additional observations from a re-analysis of the deposited data

Results flagged for a closer look

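In 518 groups of 4 libraries the highest or lowest library was set against the others, and 14 stood far from them; chance alone gives about 1 in 20 groups. The library 10E IAA 1 had 6.55 M counts, where the other IAA libraries had 10.5 to 10.98 M. In IAA libraries Eif3l, a subunit of initiation factor 3, was at 142.6 CPM in 10E IAA 1, with the others at 113.2 to 115.0 CPM, and the imprinted gene Usp29 was at 2.64 CPM in 10E IAA 2, with the others at 1.45 to 1.57 CPM.

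The other 11 lay in EtOH libraries. In 10E EtOH 2, Usp17le was at 0.185 CPM (others 0.309 to 0.330), Rpl22l1 at 39.8 CPM (others 32.1 to 33.2), the histone gene H4c2 at 21.0 CPM (others 10.1 to 10.4), Zfp750 at 2.78 CPM (others 1.37 to 1.55) and Id2 at 2.41 CPM (others 0.878 to 1.09). In 11D EtOH 2, the sterol gene Sc5d was at 22.5 CPM (others 29.5 to 30.1), Rpl26 at 163.9 CPM (others 193.2 to 197.9), Zfp677 at 0.566 CPM (others 0.165 to 0.232) and Ssrp1 at 32.4 CPM (others 38.6 to 39.8). In 11D EtOH 1, Hoxb9 was at 2.52 CPM (others 4.91 to 5.23) and Peg10 at 27.0 CPM (others 18.02 to 19.03).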

How the results depend on the processing

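No called gene named in the text changed sign under the alternatives that tested it, and of the 2302 calls 2299 kept their sign in line 10E alone and 2300 in 11D alone. The 1228 genes higher and 1074 lower became 614 and 2733 with library totals in place of TMM, and 279 and 164 in line 11D alone, which has 2 libraries a group. Without a filter on low counts 1950 genes were lower. With any 1 library left out the numbers ran from 509 to 1356 higher and from 301 to 1357 lower, the lowest without 10E IAA 1, where 796 of the 2302 calls stayed, and 607 higher and 402 lower without 11D IAA 1. The replicate block, with line and replicate number as 4 pairs, gave 829 higher and 638 lower. The deviations of same-numbered IAA and EtOH libraries of a line correlated at 0.345, -0.497, -0.315 and -0.027, so the numbers were not taken to pair treatments, although the EtOH libraries of both lines split by number on the second component. DESeq2 called 1673 higher and 1436 lower. The difference between lines was called for 0 genes by edgeR, for 135 by DESeq2, for 421 without a filter on low counts, and for 0 to 5 with any 1 library left out. The ribosomal RNA share differed by 18.4 percentage points, 17.3 to 20.2 with any 1 library left out, where 3 against 4 libraries cannot reach the threshold. Depth limits low genes: Dkk1 rests on 14 counts over the EtOH libraries and Arpp21 on 7.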

Other observations

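Imprinted and germline genes changed in both directions. Of 17 tested imprinted genes 3 rose and 2 fell. Peg10, a retrotransposon-derived gene of the placenta, had 53.9, 58.0, 61.2 and 51.3 CPM in IAA libraries and 19.03, 18.6, 27.0 and 18.02 CPM in EtOH libraries, without overlap (log2 1.45 ± 0.18, edgeR FDR 0.000735). Mest (log2 1.36) and Peg3 (log2 0.83) rose, while Slc22a18 fell to 0.981, 1.84, 1.21 and 0.778 CPM, against 6.42, 4.12, 5.49 and 4.76 CPM in EtOH libraries (log2 -2.10 ± 0.35, edgeR FDR 0.00387), and Usp29 fell (log2 -1.23). Of 12 germline genes Piwil2 (log2 2.08) and Ddx4 (log2 1.83), both of the piRNA pathway, rose, and Stra8 (log2 -2.18) and Nanos3 (log2 -0.70) fell. With any 1 library left out 1 to 3 imprinted genes were higher and 1 to 2 lower, and 1 to 3 germline genes higher and 0 to 2 lower.

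Proteasome subunits had 5 of 36 members higher and none lower, but none higher and 1 lower with library totals as the scaling, and 0 to 7 higher with any 1 library left out. Of extracellular matrix and adhesion genes, Cd44 (log2 3.59), Vim (log2 1.00), Vcl (log2 0.86) and Sdc1 (log2 0.83) rose, 4 of 21, and 1 to 5 were higher with any 1 library left out. Polycomb genes gave 1 higher and 2 lower of 24 (4.17% and 8.33%), with Cbx2 at log2 -0.99. Oxidative phosphorylation genes of the nucleus had 1 higher and 5 lower of 78, and 0 to 9 lower with any 1 library left out. The 6.41% lower in that list is below the 7.11% of all tested genes, and the Polycomb share lower is near it. The authors' deposited washout table holds all 1228 genes called higher and 1059 of the 1074 called lower here among its own 1815 positive and 1427 negative calls, and 0 genes were called with opposite signs.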
